A study of Mus musculus with 35 samples.

Results

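The transcripts described here belong to interferon-induced genes, to the Irf and Stat transcription factors, and to the genes through which cells display peptides on major histocompatibility complex (MHC) molecules, measured in the small intestine of mice. They were chosen by gene symbol alone: the Ifi, Ifit and Ifitm genes, the Oas, Gbp, Irgm, Irf and Stat families, all symbols starting with H2-, and Isg15, Mx1, Iigp1, Psmb8, Psmb9, Psmb10, Tap1, Tap2, Tapbp, B2m, Ciita and Cd74, wherever a probeset carried that symbol and no other. This gave 155 of 45037 probesets, for 94 genes. Of these, 88 probesets for 62 genes had a mean signal above 32 (a log2 value of 5) in at least 1 of the 8 groups and were tested, as 88 of the 15384 probesets of the array that did so.

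Each of 35 Affymetrix arrays held RNA from the full length of the small intestine of 1 male mouse. PPARα-null mice on the 129S4/SvJae background and wild-type 129S1/SvImJ mice, all 4 months of age, received by gavage the synthetic PPARα agonist WY14643 (4 PPARα-null and 4 wild-type mice), the triglyceride of eicosapentaenoic acid (EPA; 5 and 5), that of docosahexaenoic acid (DHA; 4 and 5) or that of oleic acid (OA; 4 and 4). All had eaten a modified AIN76A diet, with olive oil as its fat, for 2 weeks, had been fasted for 4 h and were sampled 6 h after the gavage, whose volume was 400 µl. WY14643 was given as 0.1% in 0.5% carboxymethyl cellulose and so without a fat load, no mouse was left without an agonist, and the genotypes differ in substrain as well as in PPARα, so that a difference between them cannot be told apart from a difference between substrains, probe-level sequence differences included.

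Interferons are secreted when cells sense microbes or their nucleic acids. Type I and type III interferons act through a complex that holds Stat2 and Irf9 and binds the interferon-stimulated response element (ISRE) of Ifit, Oas and many other genes, whereas interferon γ acts on a different element (GAS) in genes such as Irf1. MHC class I molecules, built from an H2 chain and B2m, present peptides cut by the immunoproteasome (Psmb8, Psmb9, Psmb10) and carried in by Tap1 and Tap2 with the help of Tapbp. Class II molecules are held by Cd74 and loaded by H2-DM in antigen-presenting cells, and in the small intestine interferon γ also induces them in enterocytes.

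Antigen presentation genes made up the largest share of the tested probesets. Among class I chains 17 of 28 probesets passed the level of 32, among peptide supply genes 7 of 11, among class II genes and their processing enzyme Ifi30 15 of 24, and among the interferon-induced GTPases (Gbp, Irgm, Iigp1, Ifi47 and Mx1) 10 of 15. The Irf factors contributed 8 of 14, the Stat factors 7 of 13, the Ifit family 5 of 6, the Oas family 4 of 10, the Ifitm family 3 of 7, and the remaining Ifi genes 7 of 10. The Ifi200 family of DNA sensors had 0 of 8 probesets above the level, and Mx1, Ciita (the class II transactivator), Ifit2 and H2-Ea were not tested for the same reason. A probeset that was left out had no group mean above 4.94. Isg15 shares its probeset with another gene symbol and was left out, as were all 25 probesets with several symbols of which 1 or more fits the rule. The rule also took in 3 Irf2-binding proteins (4 of 8 probesets tested) and H2-Ke6, which lies in the MHC but encodes a metabolic enzyme (1 of 1).

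The arrays were alike in overall distribution, with medians between 2.83 and 2.88 and between 31.6% and 32.4% of probesets above 32. The signal of the Cyp4a10 probeset (which also matches its paralog Cyp4a31), a PPARα target, lay between 1.36 and 2.50 on 15 PPARα-null arrays and between 8.15 and 12.75 on 17 wild-type arrays, and went against the label on 3 arrays, which carry the labels PPARα-null OA replicate 1, PPARα-null EPA replicate 5 and wild-type EPA replicate 5. These are kept below, and results are also given without them for some of the calls that this changed. None of them is in a WY14643 or DHA group or in wild-type OA. Comparisons among those groups change without them only through the shared spread and the adjustment. Enterocyte and pancreatic acinar markers were above 32 for 6 of 6 and 7 of 7 genes, those of macrophages and dendritic cells for 9 of 9, those of B and plasma cells for 5 of 7, those of T cells and intraepithelial lymphocytes for 5 of 12 and those of neutrophils for 0 of 4. In whole tissue, fewer cells of a type and less RNA per cell cannot be told apart.

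Interferon elements were present in the promoters of some of the genes described below. The stretches below, from RefSeq on GRCm38.p6, are the 160 bases before the start site of 3 genes that were lower after DHA than after OA, with ISRE matches (GAAA, any 2 bases and GAAA again, on either strand, overlapping matches merged) in capitals, and of Irf1, which differed between genotypes, with its GAS match (TTCNNNGAA, a palindrome) in capitals.
Ifit3 (chr19:34583369-34583528, plus strand): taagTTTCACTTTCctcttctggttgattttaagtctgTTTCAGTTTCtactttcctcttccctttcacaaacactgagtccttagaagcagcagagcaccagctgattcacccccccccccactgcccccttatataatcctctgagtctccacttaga
Oas1a (chr5:120907526-120907685, minus strand): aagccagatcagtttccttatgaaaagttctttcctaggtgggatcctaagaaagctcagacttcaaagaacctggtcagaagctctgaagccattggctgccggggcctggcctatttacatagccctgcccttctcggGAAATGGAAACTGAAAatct
Irgm1 (chr11:48871421-48871580, minus strand): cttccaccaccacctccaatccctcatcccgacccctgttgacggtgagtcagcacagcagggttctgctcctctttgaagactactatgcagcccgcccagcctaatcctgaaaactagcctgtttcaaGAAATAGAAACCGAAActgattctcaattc
Irf1 (chr11:53769854-53770013, plus strand): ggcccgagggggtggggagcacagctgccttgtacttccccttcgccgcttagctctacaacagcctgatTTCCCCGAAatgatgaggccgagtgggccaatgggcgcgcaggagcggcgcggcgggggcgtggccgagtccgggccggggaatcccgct
In Oas1a and Irgm1 the matches overlap and lie within 30 bases of the start site, and in Ifit3 they stand apart, at 156 and 122 bases before it. Of the 94 member genes 73 had a promoter in the table, a window of 250 bases before to 50 after the start. An ISRE match was present for 22 of these 73 (30.1%), against 3.99% of 27025 genes, and a GAS match for 15 (20.5%), against 9.55%. By role, 6 of 7 GTPases, 4 of 5 Ifit genes and 3 of 7 Oas genes had an ISRE match, whereas among class I chains only B2m did (1 of 9), and 0 of 5 peptide supply and 0 of 8 class II genes did. The windows of Oasl1, Oasl2, Irf9, Irf7, H2-Q10, H2-T3, Tapbp and Ifi30 held no ISRE match, which says only that these letters were not in those windows.

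To see whether the genotype mattered for these genes, PPARα-null and wild-type mice were compared after each agonist. After DHA, PPARα-null mice had higher signals of Irf1, of the class I genes H2-T3 and H2-T18 and of the peptide-loading protein Tapbp, and lower signals of Oasl1, a member of the Oas family. Of the 88 member probesets 5 were higher (2.74% of all tested probesets were) and 1 was lower (3.45% of all). Irf1, a transcription factor induced by interferon γ, had log2 signals of 9.89, 9.49, 9.79 and 9.20 in PPARα-null mice, against 8.73, 8.94, 9.11, 8.52 and 8.63 in wild-type mice. The groups did not overlap, and the difference of 0.81 ± 0.15 (SE; 1.75-fold; adjusted p = 0.00173) kept its call whichever array was left out, with adjusted p at most 0.0161.

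H2-T3 encodes the thymus leukaemia antigen, a non-classical class I molecule of the intestinal epithelium that binds CD8αα on intraepithelial lymphocytes. Its probeset of higher signal read 10.37, 10.26, 10.84 and 10.03 in PPARα-null mice after DHA, against 9.52, 9.89, 9.94, 9.88 and 9.37 in wild-type mice, again without overlap (difference 0.65 ± 0.13, 1.57-fold; adjusted p = 0.00405). The second probeset of the gene differed by 0.70 ± 0.16 (adjusted p = 0.00755), and that of its near-identical neighbour H2-T18 by 0.71 ± 0.18 (adjusted p = 0.0187). The second H2-T3 probeset and that of H2-T18 carry the suffix _x_at and can bind both transcripts, so they do not separate the genes. Whether the first H2-T3 probeset, which lacks the suffix, binds only its own transcript was not tested. The T cell and intraepithelial lymphocyte markers, summed on the linear scale, ranged between 467 and 1456 in PPARα-null and between 1004 and 1778 in wild-type mice after DHA, with 0 of 5 called, and their part in the result was not tested.

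Tapbp, which bridges class I molecules and the peptide transporter, read 10.90, 10.77, 11.18 and 10.65 in PPARα-null mice after DHA and 10.62, 10.58, 10.47, 10.54 and 10.47 in wild-type mice (difference 0.34 ± 0.08, 1.27-fold; adjusted p = 0.00892). Oasl1 read 8.47, 8.54, 8.67 and 7.89 in PPARα-null mice, against 8.98, 8.85, 9.17, 9.08 and 9.16 in wild-type mice (difference -0.66 ± 0.18, 1.58-fold lower; adjusted p = 0.0264). In both genes the genotypes did not overlap. These calls leaned on single mice. Without PPARα-null DHA replicate 3, the highest of its group for Tapbp and for all 3 H2-T probesets, 3 member probesets were called, and the calls of Tapbp (adjusted p = 0.0884), H2-T18 (0.174) and the second H2-T3 probeset (0.0748) were lost. H2-T18 was also lost without wild-type DHA replicate 5, and Oasl1 without any of wild-type DHA replicates 3, 4 and 5 or PPARα-null DHA replicate 4 (adjusted p up to 0.105). Without PPARα-null DHA replicate 4, 13 member probesets were called, and with only the DHA groups in the model, 1, which was Irf1. Without the 3 arrays that go against their label, 6 were higher and 1 lower (7.39% of all tested probesets were called in that setting).

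**Figure D1:**
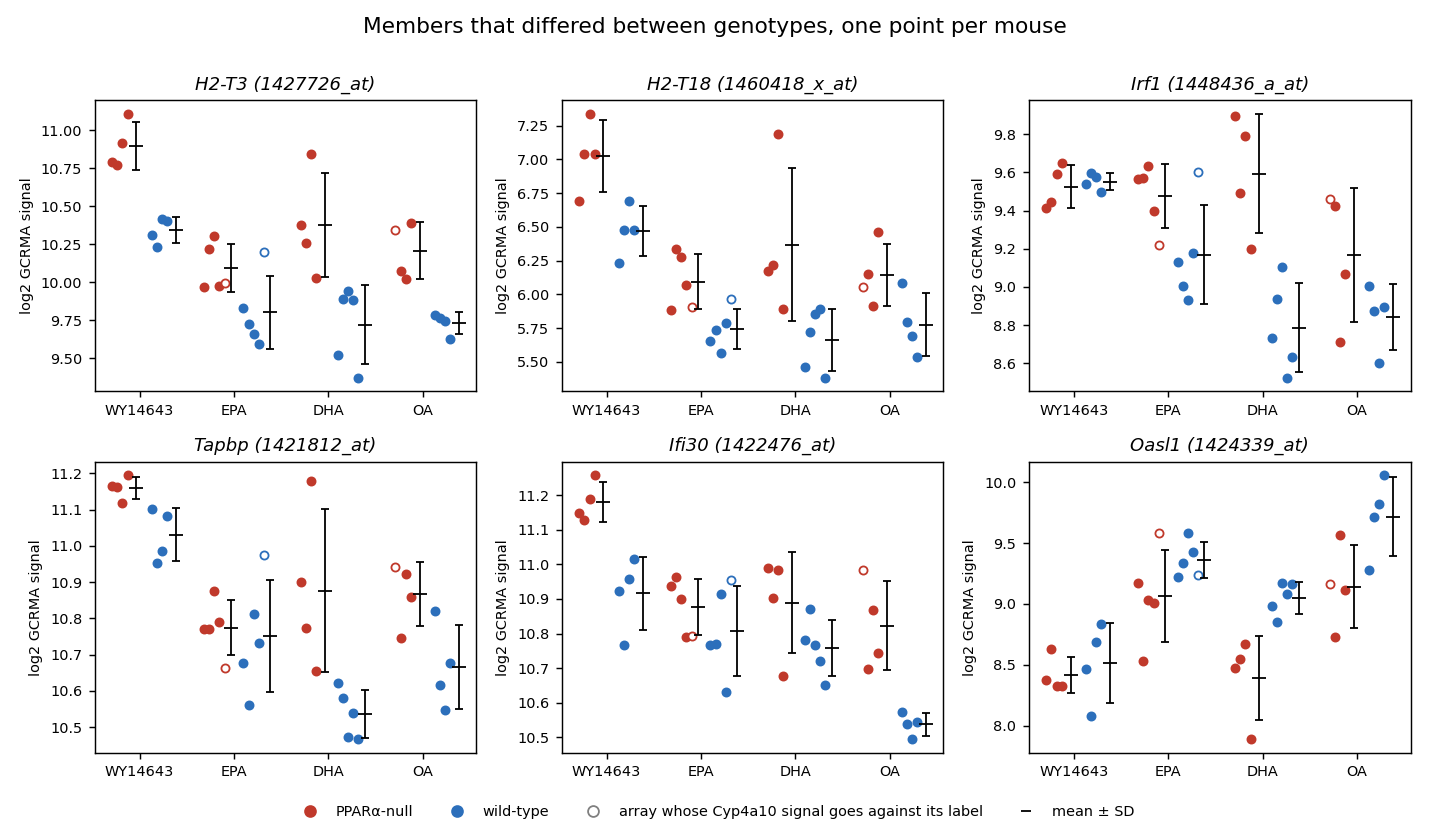
Log2 signal of 6 members (y axis) in each mouse by agonist (x axis), PPARα-null mice in red and wild-type mice in blue, with the mean ± SD of each group (n = 4 or 5) and open circles for the 3 arrays whose Cyp4a10 signal goes against the label. H2-T3 is higher in PPARα-null than in wild-type mice without overlap after WY14643, DHA and OA, and Irf1 differs without overlap only after DHA.

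After WY14643, 2 member probesets were higher in PPARα-null than in wild-type mice (2.47% of all tested) and 0 were lower (3.75% of all). H2-T3 read 10.79, 10.77, 10.92 and 11.11 in PPARα-null mice, against 10.31, 10.23, 10.42 and 10.40 in wild-type mice (difference 0.56 ± 0.14, 1.47-fold; adjusted p = 0.0123). Ifi30, a lysosomal thiol reductase that unfolds proteins for class II presentation, read 11.15, 11.13, 11.19 and 11.26 in PPARα-null mice and 10.92, 10.77, 10.96 and 11.02 in wild-type mice (difference 0.26 ± 0.07, 1.2-fold; adjusted p = 0.026). Neither pair of groups overlapped, but the H2-T3 call was lost without wild-type replicate 2 or PPARα-null replicate 4 (adjusted p up to 0.0643), and the Ifi30 call without wild-type replicate 1 or 2 or PPARα-null replicate 3 or 4 (up to 0.143). Irf1, which differed after DHA, read 9.41, 9.45, 9.59 and 9.65 in PPARα-null mice and 9.54, 9.60, 9.58 and 9.50 in wild-type mice after WY14643, an overlapping range.

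After EPA, 0 member probesets were called by limma, as was 0% of all tested probesets. At an unadjusted p under 0.05, 6 of 88 members passed (6.82%, against 8.77% of all tested). After OA, 0 members were called, against 0.351% of all tested probesets, and 13 had an unadjusted p under 0.05 (14.8%, against 11.5% of all). Without the 3 arrays that go against their label, 0 members were called after either triglyceride, against 1.64% of all tested probesets after EPA and 1.45% after OA. After OA, H2-T3 read 10.34, 10.08, 10.02 and 10.39 in PPARα-null mice and 9.79, 9.77, 9.75 and 9.63 in wild-type mice, and Ifi30 read 10.98, 10.70, 10.87 and 10.74 against 10.57, 10.54, 10.49 and 10.54. The groups did not overlap for either gene, with differences of 0.48 ± 0.14 and 0.28 ± 0.07 and adjusted p of 0.139 and 0.0816.

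Averaged over the 4 agonists, where all 35 mice contribute, 10 member probesets were higher in PPARα-null mice (11.1% of all tested) and 3 were lower (9.63% of all), so the members were not called more often than the array as a whole. H2-T3 differed by 0.49 ± 0.07 (adjusted p = 3.62e-06) and 0.43 ± 0.08 on its 2 probesets, H2-T18 by 0.50 ± 0.09, Irf1 by 0.35 ± 0.07, Ifi30 by 0.19 ± 0.04 and Tapbp by 0.17 ± 0.04 (adjusted p = 0.00235). The second Tapbp probeset, of lower signal and wide spread between mice, was not called and averaged -0.11 between genotypes, the widest disagreement among the 17 genes with several tested probesets. H2-M3, which presents formylated bacterial peptides, was 0.21 ± 0.06 higher, the immunoproteasome subunits Psmb10 and Psmb8 were 0.20 ± 0.06 and 0.24 ± 0.08 higher, and Stat6, the mediator of interleukin 4 signals, was 0.15 ± 0.05 higher. Oasl1 was lower by -0.41 ± 0.09 (adjusted p = 0.0019), and Irf3, which switches on interferon genes, by -0.20 ± 0.06 and -0.14 ± 0.05 on its 2 probesets. The higher-signal Irf3 probeset (adjusted p = 0.0473) lost its call on leaving out any of 24 of the 35 arrays, and Psmb8 (adjusted p = 0.0322) on leaving out any of 7. Without the 3 arrays that go against their label, 15 probesets were higher and 3 lower (23.5% of all tested probesets were called in that setting), the additions being Gbp7, Ifi27l2a, Tap1, Irf2 and 1 of the 4 H2-Aa probesets. Because those arrays were chosen for going against genotype, that count is no independent evidence of a genotype difference.

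The second set of comparisons asked how the agonists differed within a genotype. WY14643, EPA and DHA were each set against OA, which serves all 3 as their shared control, and WY14643 against DHA. Irf9, Irgm1 and some genes of the Oas and Ifit families were lower after DHA than after OA, with 3 of 4 Oas and 2 of 5 Ifit probesets called in PPARα-null mice and 2 of 4 and 1 of 5 in wild-type mice. After DHA, 8 member probesets were lower than after OA in PPARα-null mice (0.722% of all tested) and 0 higher (0.202% of all), and 7 were lower in wild-type mice (2.35% of all) and 0 higher (1.05% of all). Irf9, Oas1a, Irgm1, Ifit3, Oasl1 and H2-Q10 were among the lower genes in both genotypes.

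Irf9 is the DNA-binding subunit of the complex that interferon assembles on the ISRE. In PPARα-null mice it read 7.97, 8.24, 7.93 and 7.87 after WY14643, 8.21, 7.76, 8.20, 8.04 and 8.01 after EPA and 8.02, 8.06, 7.94 and 8.03 after DHA, against 8.77, 8.52, 8.68 and 8.53 after OA. All mice given another agonist lay below all mice given OA. The differences from OA were -0.63 ± 0.12 after WY14643 (1.54-fold lower; adjusted p = 0.000347), -0.58 ± 0.11 after EPA (adjusted p = 0.00245) and -0.61 ± 0.12 after DHA (adjusted p = 0.00463), and none of the 3 calls was lost on leaving out any array. In wild-type mice Irf9 read 8.05, 8.29, 8.04 and 8.52 after WY14643, 8.25, 8.39, 8.37, 8.02 and 8.72 after EPA and 8.23, 7.98, 8.06, 8.01 and 8.03 after DHA, against 8.52, 8.58, 8.54 and 8.57 after OA. There it was lower after DHA (difference -0.49 ± 0.11; adjusted p = 0.00844) and after WY14643 (-0.33 ± 0.12; adjusted p = 0.0343), and was not called after EPA, where the array against its label, replicate 5, was the highest.

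Ifit3, which binds to other Ifit proteins that sequester viral RNA, read 6.39, 6.81, 6.86 and 5.99 in PPARα-null mice after DHA, against 7.77, 7.19, 7.39 and 8.59 after OA (difference -1.22 ± 0.31, 2.33-fold lower; adjusted p = 0.0488). In wild-type mice it read 6.17, 6.58, 7.17, 7.20 and 6.51 after DHA and 7.82, 8.34, 8.19 and 8.39 after OA (difference -1.46 ± 0.29, 2.75-fold lower; adjusted p = 0.00238). The DHA and OA mice did not overlap in either genotype. The wild-type call was kept whichever array was left out, with adjusted p at most 0.0148. The PPARα-null call was lost without OA replicate 1, 3 or 4 or DHA replicate 1, 3 or 4 (adjusted p up to 0.189) and without the 3 arrays that go against their label (adjusted p = 0.0634).

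Oas1a, an enzyme that makes the 2′-5′ oligoadenylates which activate an RNA-degrading nuclease, read 9.09, 9.10, 9.23 and 8.85 after DHA in PPARα-null mice, against 10.08, 9.56, 10.003 and 10.09 after OA. In wild-type mice it read 9.08, 9.20, 9.45, 9.35 and 9.07 after DHA, against 9.69, 10.07, 9.82 and 10.28 after OA. The DHA mice lay below the OA mice in both genotypes, with differences of -0.86 ± 0.20 (adjusted p = 0.0255) in PPARα-null and -0.73 ± 0.19 (adjusted p = 0.0209) in wild-type mice. Oas1a was also lower after WY14643 than after OA, by -0.82 ± 0.20 (adjusted p = 0.00307) in PPARα-null and -0.80 ± 0.20 (adjusted p = 0.00281) in wild-type mice, and lower after EPA in PPARα-null mice (-0.84 ± 0.19; adjusted p = 0.0119). The WY14643 calls were kept whichever array was left out. The DHA calls were lost without PPARα-null OA replicate 1, 3 or 4 or DHA replicate 1 or 4 (adjusted p up to 0.0967) and without wild-type OA replicate 2 or 4 or DHA replicate 1 or 5 (up to 0.114), and the EPA call without PPARα-null OA replicate 4 (0.0538).

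Irgm1, an interferon-induced GTPase of autophagy and defence against intracellular bacteria, read 6.72, 6.73, 6.98 and 5.95 in PPARα-null mice after DHA, against 7.75, 7.59, 7.54 and 7.73 after OA (difference -1.06 ± 0.20, 2.08-fold lower; adjusted p = 0.00353), a call kept whichever array was left out. In wild-type mice it read 6.69, 6.66, 6.53, 6.92 and 6.22 after DHA, against 7.24, 7.63, 7.23 and 7.10 after OA (difference -0.70 ± 0.19; adjusted p = 0.0272), also without overlap, and the call was lost on leaving out any of 5 of the 9 arrays (wild-type OA replicates 1, 2 and 3, DHA replicates 3 and 5; adjusted p up to 0.13). Irgm1 after WY14643 was not called against OA but was higher than after DHA, by 0.62 ± 0.20 (adjusted p = 0.0317, up to 0.204 on leaving out any of 5 arrays) in PPARα-null and 0.49 ± 0.19 (adjusted p = 0.0415) in wild-type mice. Oasl1 was lower after WY14643 than after OA by -0.73 ± 0.19 (adjusted p = 0.00596) in PPARα-null and -1.20 ± 0.19 (2.30-fold; adjusted p = 3.43e-05) in wild-type mice, and lower after DHA by -0.75 ± 0.19 and -0.67 ± 0.18, at adjusted p of 0.05, at the threshold itself, and 0.0314. Both Oasl1 calls after DHA were lost on leaving out any of 6 arrays of their own groups, with adjusted p up to 0.27 and 0.16, and the one in PPARα-null mice also without the 3 arrays (0.0581).

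In PPARα-null mice Oasl2 and Ifit1 were lower after DHA too, Oasl2 by -1.12 ± 0.28 (adjusted p = 0.0472) and Ifit1 by -1.07 ± 0.24 (adjusted p = 0.0199). The Oasl2 call was lost on leaving out any of 7 of the 8 arrays (all but OA replicate 2), and the Ifit1 call without OA replicate 3 or 4 or DHA replicate 1 or 4 (adjusted p up to 0.0695). In wild-type mice the DHA minus OA difference was -0.86 ± 0.27 for Oasl2, which was not called (adjusted p = 0.0704) unless the 3 arrays were left out (0.0197). After EPA, 4 member probesets were lower than after OA in PPARα-null mice (1.14% of all tested) and 0 higher (1.05% of all), namely Irf9, Oas1a, Oasl2 (-1.10 ± 0.27; adjusted p = 0.0218) and Irgm1 (-0.73 ± 0.19; adjusted p = 0.0306), the last of these not called without the 3 arrays that go against their label (0.139). This Irgm1 call was also lost on leaving out any of 6 of the 9 arrays (adjusted p up to 0.101), and the Oasl2 call without OA replicate 1 or 4 (up to 0.106). Without OA replicate 4 only 1 probeset was called, without OA replicate 1, 2 were, and with only the EPA and OA groups in the model, 0. Without the 3 arrays, 3 were lower and 1 higher after EPA (2.33% of all tested probesets were called). Irf7, the main amplifier of type I interferon production, and Stat2 were not called against OA after any agonist, and Irf7 was 0.70 ± 0.24 higher after WY14643 than after DHA in PPARα-null and 0.69 ± 0.23 higher in wild-type mice (adjusted p = 0.0455 and 0.0184).

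**Figure D2:**
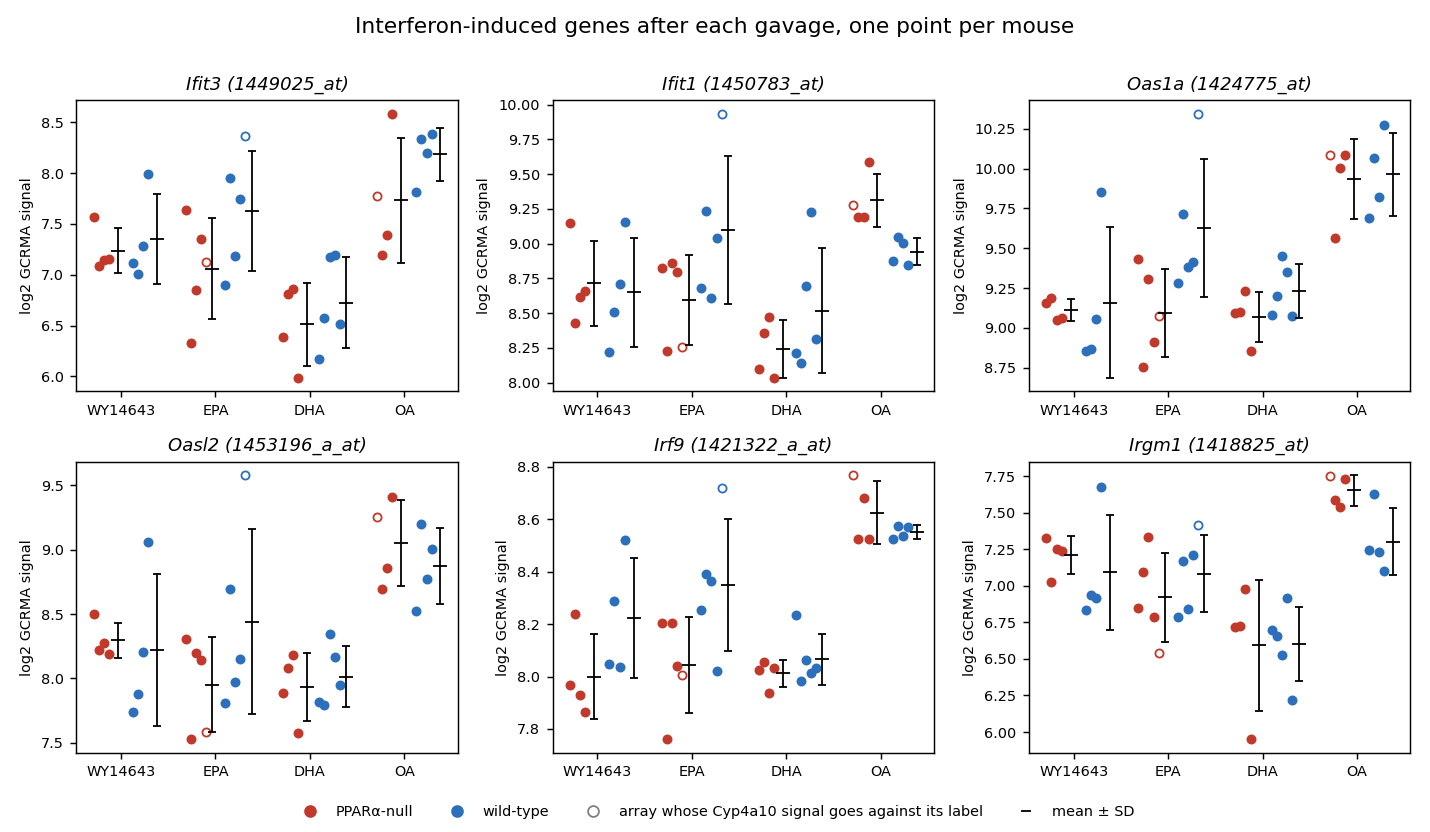
Log2 signal of 6 interferon-induced genes (y axis) in each mouse by agonist (x axis), PPARα-null mice in red and wild-type mice in blue, with the mean ± SD of each group (n = 4 or 5) and open circles for the 3 arrays whose Cyp4a10 signal goes against the label. For Oas1a, Irf9 and Irgm1 the OA mice lie above all DHA mice of their genotype, and wild-type EPA replicate 5 stands above the rest of its group for Ifit1, Oas1a, Oasl2 and Irf9.

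RNA of pancreatic acinar cells was also present, and differed between WY14643 and OA in PPARα-null mice. The summed signal of its 7 markers ranged between 56119 and 105999 in PPARα-null mice after OA, with 2491 to 14905 after WY14643, 6149 to 58317 after EPA and 14028 to 46214 after DHA, and 7 of 7 markers were lower after WY14643 than after OA, while 0 of 7 were called after EPA or DHA. In wild-type mice the range was 17467 to 71258 after OA, and 8208 to 39043, 217 to 76291 and 6165 to 103735 after WY14643, EPA and DHA, with 0 of 7 called in each comparison. Their part in the lower interferon-induced genes was not tested.

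H2-Q10, a secreted class I molecule known mainly from liver, was lower after all 3 other agonists than after OA in wild-type mice. In wild-type mice it read 8.27, 7.75, 7.91 and 9.72 after WY14643, 8.80, 8.68, 8.83, 8.66 and 8.93 after EPA and 8.09, 8.34, 9.17, 8.98 and 8.14 after DHA, against 10.14, 9.63, 10.69 and 10.36 after OA. Apart from 1 mouse given WY14643, no mouse reached the OA range. The differences from OA were -1.79 ± 0.33 (3.47-fold lower; adjusted p = 0.000197), -1.42 ± 0.32 (adjusted p = 0.00434) and -1.66 ± 0.32 (adjusted p = 0.00135), and each call was kept whichever array was left out. In PPARα-null mice H2-Q10 read 8.61, 7.89, 8.10 and 8.31 after DHA, against 9.91, 8.49, 9.72 and 10.07 after OA (difference -1.32 ± 0.33; adjusted p = 0.0488), an overlapping range, and the call was lost on leaving out any of 7 of the 8 arrays (all but OA replicate 2; adjusted p up to 0.171) and without the 3 arrays (0.107). After WY14643 and EPA its differences from OA in PPARα-null mice, -0.48 ± 0.33 and -0.56 ± 0.32, were not called.

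WY14643 was set against OA next. In PPARα-null mice 6 member probesets were higher (14.6% of all tested) and 9 lower (10.7% of all), and in wild-type mice 9 were higher (13.4% of all) and 7 lower (14.7% of all), so the members were called no more often than the array as a whole. Without the 3 arrays that go against their label, 8 were higher and 7 lower in PPARα-null mice (24.5% of all tested probesets were called). In wild-type mice 11 were higher and 6 lower in that setting (28.8% of all called). The higher genes were mostly class I and other presentation genes, and the lower ones included Oas genes, Irf9, Ifitm1 and Ifitm3. H2-T3 was higher by 0.69 ± 0.14 (1.61-fold; adjusted p = 0.00082) in PPARα-null and 0.61 ± 0.14 (1.53-fold; adjusted p = 0.00172) in wild-type mice. With the values given above, all mice given WY14643 lay above all mice of their genotype given OA. H2-T18 was 0.88 ± 0.19 and 0.70 ± 0.19 higher, Tapbp 0.29 ± 0.08 and 0.37 ± 0.08, and Ifi30 0.36 ± 0.07 and 0.38 ± 0.07, in PPARα-null and wild-type mice in that order. Each of these 4 genes was called in both genotypes and whichever array was left out. B2m was called in PPARα-null mice on its higher-signal probeset (0.20 ± 0.06; adjusted p = 0.0115), a call lost without OA replicate 2 (0.0539), and in wild-type mice on its other probeset (0.17 ± 0.06; adjusted p = 0.0475). Irf1 was higher in wild-type mice, at 9.54, 9.60, 9.58 and 9.50 after WY14643 against 9.01, 8.87, 8.60 and 8.90 after OA (difference 0.71 ± 0.16; adjusted p = 0.00107), and in PPARα-null mice overlapped, with a difference of 0.36 ± 0.16 that was not called.

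Against DHA, WY14643 gave the broadest pattern among the members. In wild-type mice 27 probesets were higher after WY14643 than after DHA (16.1% of all tested) and 6 lower (17.9% of all). Among the higher ones were 14 of the 17 class I probesets, for B2m, H2-K1, H2-D1, H2-Bl, H2-Q2, H2-T3 and H2-T18, and 5 of the 7 peptide supply probesets. The median difference was 0.27 among class I chains and 0.54 among peptide supply genes, against -0.01 over all tested probesets. Class II genes and Ifi30 went the same way, with a median of 0.43 and 14 of 15 probesets positive, but only 2 were called. In PPARα-null mice 9 member probesets were higher (8.20% of all tested) and 3 lower (7.14% of all), and among class I chains 3 of 17 were higher, all 3 of H2-T3 and H2-T18. Several class I probesets carry the suffix _x_at and can bind more than 1 H2 transcript, so they are not independent of each other. The number of called members in PPARα-null mice rested on DHA replicate 4, without which 1 probeset was called in place of 12, while without any other DHA or WY14643 replicate between 4 and 17 were, and with only these groups in the model 1 was.

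In wild-type mice the classical chains H2-K1 and H2-D1, which present peptides to cytotoxic T cells, read 12.38, 12.26, 12.23 and 12.46 and 12.70, 12.67, 12.61 and 12.58 after WY14643, against 12.03, 12.23, 11.97, 11.89 and 11.94 and 12.49, 12.60, 12.48, 12.37 and 12.38 after DHA. In these readings the groups met at 12.23 for H2-K1 and overlapped slightly for H2-D1. The differences were 0.32 ± 0.10 (1.25-fold, adjusted p = 0.0156) and 0.18 ± 0.07 (1.13-fold, adjusted p = 0.0401). The H2-K1 probeset of lowest signal differed by 0.55 ± 0.13 (adjusted p = 0.00202) and was also lower after EPA (-0.54 ± 0.13; adjusted p = 0.0102) and after DHA (-0.47 ± 0.13; adjusted p = 0.0402) than after OA, the last call being lost on leaving out any of 7 of the 9 arrays (all but DHA replicates 2 and 3; adjusted p up to 0.125). H2-Bl rose by 0.49 ± 0.13 (adjusted p = 0.0033) and B2m, the light chain shared by all class I molecules, by 0.20 ± 0.06 (adjusted p = 0.00669).

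Tapbp showed the smallest adjusted p of any member in this comparison, at 11.10, 10.95, 10.99 and 11.08 after WY14643 against 10.62, 10.58, 10.47, 10.54 and 10.47 after DHA in wild-type mice (difference 0.49 ± 0.08, 1.41-fold; adjusted p = 3.17e-05). Psmb9, an immunoproteasome subunit, read 8.23, 7.91, 7.90 and 8.73 against 7.39, 7.67, 7.34, 7.50 and 7.56 (difference 0.70 ± 0.20, 1.63-fold; adjusted p = 0.00853). Psmb8 differed by 0.54 ± 0.16 (adjusted p = 0.00837), Psmb10 by 0.32 ± 0.12 (adjusted p = 0.0461) and Tap2 by 0.68 ± 0.26 (adjusted p = 0.0399), while Tap1 was not called (0.46 ± 0.23). Tap2 had a low signal, near the log2 level of 5 above which a probeset was tested. In PPARα-null mice it read between 3.56 and 4.99 after DHA and between 4.5 and 5.51 after OA. The standard proteasome subunits that Psmb9, Psmb8 and Psmb10 replace went the other way, with Psmb6 -0.24 ± 0.08, Psmb5 -0.32 ± 0.10 and Psmb7 -0.38 ± 0.09 (adjusted p = 0.0261, 0.0179 and 0.00228). Irf1 differed by 0.77 ± 0.15 (1.70-fold; adjusted p = 0.000243), with no overlap. Among the leading differences H2-T3, H2-T18, H2-Bl, Irf1, Tapbp and Ifit1bl2 (0.56 ± 0.15) kept their calls whichever array was left out. The T cell and intraepithelial lymphocyte markers summed to between 1645 and 2143 after WY14643 and between 1004 and 1778 after DHA, with 1 of 5 called higher, and those of macrophages and dendritic cells to between 5600 and 6380 and between 5350 and 6066, with 1 of 9 higher and 1 lower. Their part in the class I difference was not tested.

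**Figure D3:**
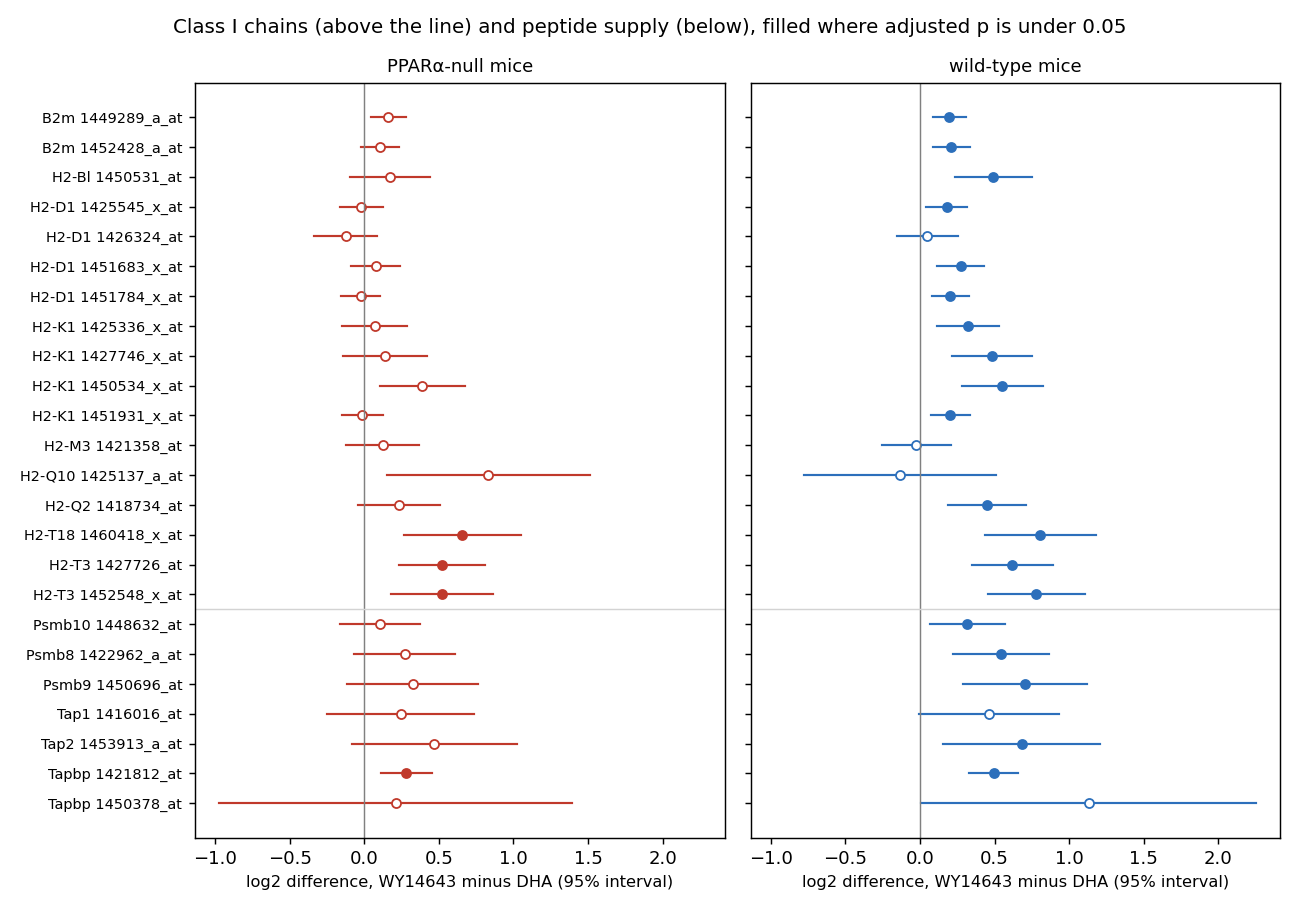
Log2 difference between WY14643 and DHA (x axis, point with its 95% interval) for each tested class I and peptide supply probeset (y axis) in PPARα-null mice (left) and wild-type mice (right), filled where the adjusted p is under 0.05. In wild-type mice 14 of 17 class I and 5 of 7 peptide supply probesets are filled, in PPARα-null mice 3 of 17 and 1 of 7.

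Whether these responses differed between the genotypes was tested directly, as the genotype difference after 1 agonist minus that after another. For WY14643 against DHA 0 members were called (0.436% of all tested probesets were), and 0 were for WY14643 against OA (1.07% of all) and for DHA against OA (0% of all). The member of smallest p was Irf1 for WY14643 against DHA, with a difference of -0.83 ± 0.21 between the genotype effects (adjusted p = 0.0855). Its genotype difference was near 0 after WY14643 and 0.81 after DHA. Without the 3 arrays that go against their label the same contrast reached an adjusted p of 0.0216 for Irf1, the only member called in any of the 3 contrasts in that setting. None of those arrays is in a WY14643 or DHA group, so the difference itself did not change, only the shared spread and the adjustment. With only the groups compared in the model, 0 members were called in this contrast. The smaller number of class I calls in PPARα-null mice is therefore not shown to be a difference between the genotypes, and the median difference between the genotype effects was -0.20 over the 17 class I probesets, with 2 of 17 positive, against 0.02 over all tested probesets.

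Stat3, the mediator of interleukin 6, 10 and 22 signals in the epithelium, was lower after WY14643 than after DHA in both genotypes. On the probeset of highest signal it read 8.95, 9.34, 8.87 and 9.29 in PPARα-null mice after WY14643 and 10.32, 10.03, 9.78 and 10.23 after DHA (difference -0.97 ± 0.20, 1.96-fold lower; adjusted p = 0.00338), without overlap. In wild-type mice it read 9.71, 9.26, 9.47 and 9.30 after WY14643 and 9.73, 9.97, 10.13, 10.01 and 10.32 after DHA (difference -0.60 ± 0.19; adjusted p = 0.0167), where the groups were just apart. Against OA it was lower after WY14643 in PPARα-null mice (-0.63 ± 0.20; adjusted p = 0.0228), and in wild-type mice 0 of its 3 probesets were called (-0.15 ± 0.20 on the same probeset). After EPA, 4 member probesets were higher than after OA in wild-type mice (2.69% of all tested) and 2 lower (3.37% of all). The higher ones were Ifi30 (0.27 ± 0.07; adjusted p = 0.0167) and all 3 Stat3 probesets, by 0.66 ± 0.19, 0.67 ± 0.14 (adjusted p = 0.00181) and 0.59 ± 0.18, and the lower ones were H2-Q10 and H2-K1. Of the Stat3 probesets, only that with the difference of 0.67 kept its call whichever array was left out and without the 3 arrays. Without wild-type EPA replicate 5, 3 member probesets were called, and the Ifi30 call was lost without that array, EPA replicate 3 or OA replicate 3 (adjusted p up to 0.0619).

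Ifitm1 and Ifitm3, membrane proteins that block the entry of enveloped viruses, were lower after WY14643 than after OA. Both were also lower than after DHA in wild-type mice, and Ifitm1 in PPARα-null mice. Ifitm1 read 8.02, 8.02, 8.15 and 8.35 in wild-type mice after WY14643, against 8.70, 8.57, 8.76, 8.99 and 9.14 after DHA (difference -0.70 ± 0.18, 1.62-fold lower; adjusted p = 0.00357) and 8.84, 8.52, 8.58 and 8.59 after OA (-0.50 ± 0.19; adjusted p = 0.0487). In PPARα-null mice it was -0.62 ± 0.19 lower than after OA (adjusted p = 0.0157) and -0.68 ± 0.19 lower than after DHA (adjusted p = 0.0168), calls lost without WY14643 replicate 2 or OA replicate 3 (adjusted p up to 0.0746) and without WY14643 replicate 2 or DHA replicate 2 or 4 (up to 0.115). Ifitm3 differed from OA by -0.28 ± 0.10 and -0.27 ± 0.10 in PPARα-null and wild-type mice, at adjusted p of 0.0421 and 0.0497, and from DHA in wild-type mice by -0.28 ± 0.10 (adjusted p = 0.0288), while Ifitm2 was not called in any comparison.

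Few class II probesets were called in any comparison, and within several groups 1 mouse was the highest or the lowest for most of them. H2-Aa, a class II chain, ranged between 10.64 and 11.998 over the 35 mice. It read 11.38, 11.45, 11.25 and 11.998 in PPARα-null and 11.59, 11.21, 10.999 and 11.66 in wild-type mice after WY14643, and 11.70, 11.38, 11.78 and 10.85 in PPARα-null against 10.85, 11.34, 10.64, 10.91 and 10.94 in wild-type mice after DHA. The DHA difference of 0.49 ± 0.19 was not called (adjusted p = 0.11), nor were those of Cd74 (0.51 ± 0.19; adjusted p = 0.1) and H2-Eb1 (0.43 ± 0.15; adjusted p = 0.0893). Of the 15 class II probesets 14 were higher in PPARα-null mice after DHA (8091 of all 15384 tested probesets were), with a median difference of 0.45 and 0 called. After EPA 2 of the 15 had a positive difference (7853 of all did), with a median of -0.17. After WY14643 and OA 14 and 13 did (9067 and 7238 of all), with medians of 0.14 and 0.18. Within groups, PPARα-null WY14643 replicate 4 was the highest of its group for 14 of the 15 probesets, wild-type EPA replicate 5 for 13 and wild-type WY14643 replicate 4 for 12, while PPARα-null DHA replicate 4 was the lowest for 13. The summed markers of B and plasma cells ranged between 8641 and 9850 in PPARα-null and between 8830 and 9834 in wild-type mice after DHA, and those of macrophages and dendritic cells between 5308 and 6150 and between 5350 and 6066, with 0 called in either list. Between WY14643 and DHA in wild-type mice H2-Oa, a chain of the inhibitor of H2-DM, and 1 of the 3 H2-Ab1 probesets were higher (0.76 ± 0.22 and 0.73 ± 0.28, adjusted p = 0.00787 and 0.047). In that comparison 10 of the 15 class II probesets had an unadjusted p under 0.05 in limma (66.7%, against 43.4% of all tested).

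**Figure D4:**
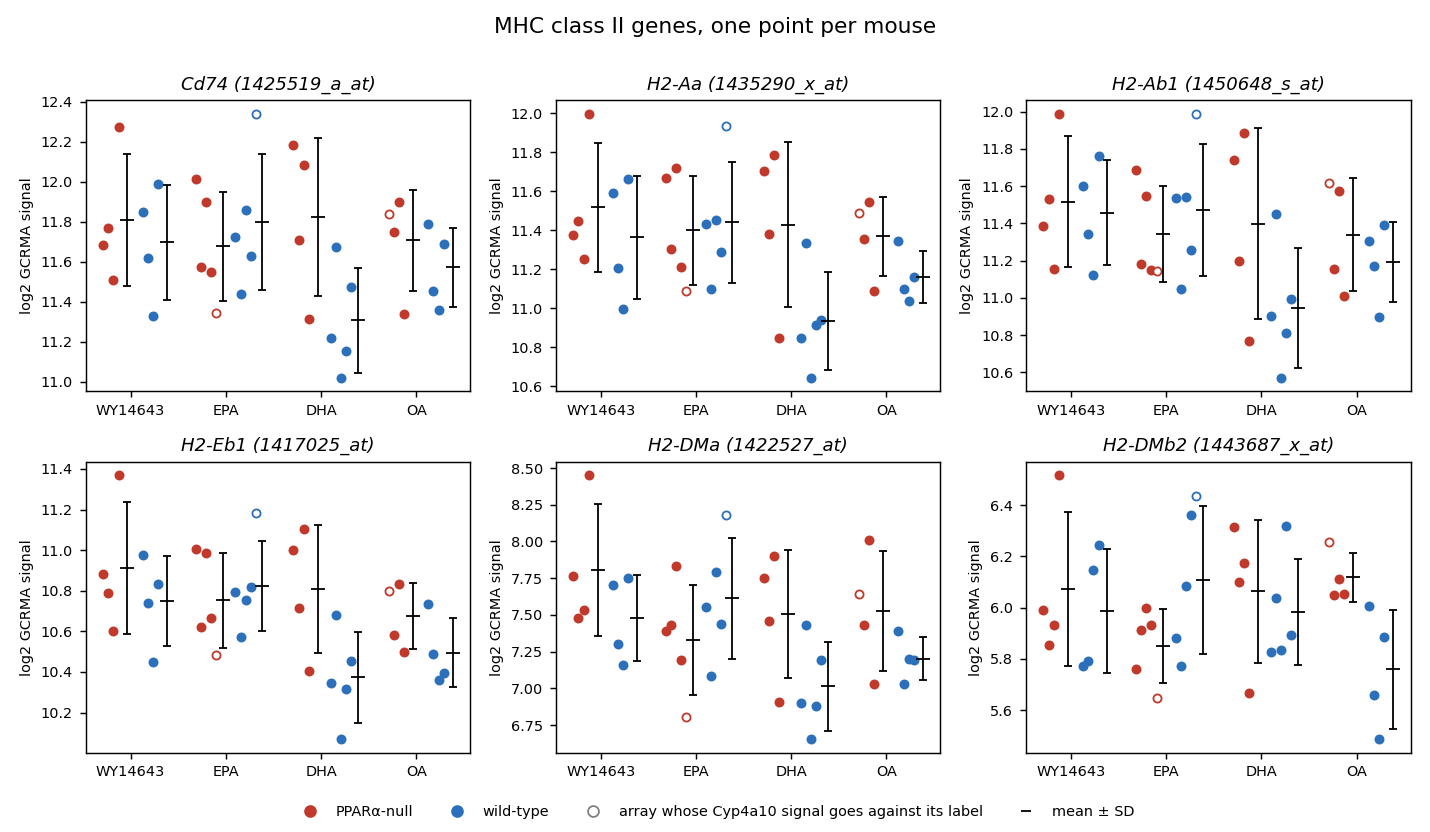
Log2 signal of 6 class II genes (y axis) in each mouse by agonist (x axis), PPARα-null mice in red and wild-type mice in blue, with the mean ± SD of each group (n = 4 or 5) and open circles for the 3 arrays whose Cyp4a10 signal goes against the label. The genotypes overlap for H2-Aa after every agonist, and the gene spans 10.64 to 11.998.

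Calls were few among the remaining members. Among the GTPases, Gbp3 was 0.65 ± 0.21 higher after WY14643 than after DHA in PPARα-null mice (adjusted p = 0.0323), a call lost without DHA replicate 1 or 4 or WY14643 replicate 1, 3 or 4 (adjusted p up to 0.175). Its signal was low, near the log2 level of 5. After WY14643, PPARα-null replicate 1 read 5.94, apart from the others at 5.4 to 5.47. Ifi47 was 0.78 ± 0.24 higher after WY14643 than after DHA in wild-type mice (adjusted p = 0.0117). Gbp2 and Iigp1, which act against intracellular parasites, were not called in any comparison, Iigp1 with readings between 4.31 and 6.80 over the 35 mice. Ifit1bl1 was -0.67 ± 0.24 lower after WY14643 than after OA in PPARα-null mice (adjusted p = 0.0397), and the Irf2-binding protein Irf2bpl was 0.48 ± 0.14 higher in wild-type mice (adjusted p = 0.00837), a call lost without OA replicate 1 (0.0512). H2-DMa and Cd74 were not called in any comparison.

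Genes of the same pathways that the rule did not take in were counted from 5 lists. Of 9 tested kinases and inhibitors of interferon signalling, Usp18, which removes Isg15 from proteins and blocks the type I interferon receptor, was lower than after OA in 5 of the 6 comparisons with it. It differed by -1.65 ± 0.33 after WY14643, -1.80 ± 0.31 after EPA and -2.10 ± 0.33 after DHA in PPARα-null mice and by -1.60 ± 0.33 after WY14643 and -1.58 ± 0.31 after DHA in wild-type mice (adjusted p between 0.000529 and 0.0018). Socs3, an inhibitor induced by Stat3, was lower than after OA in PPARα-null mice after WY14643 (-2.11 ± 0.48) and higher in wild-type mice after EPA (2.21 ± 0.45). Of 28 other interferon-induced effectors, 3 were lower after DHA than after OA in PPARα-null mice (0.722% of all tested probesets were) and 5 in wild-type mice (2.35% of all). In both genotypes 0 were higher (0.202% and 1.05% of all). Ddx60, an RNA helicase of viral sensing, was among both (-1.21 ± 0.26 and -1.18 ± 0.24). Of 9 nucleic acid sensors and adaptors, Zbp1 was lower after DHA in PPARα-null mice (-1.13 ± 0.29; adjusted p = 0.0484) and Ddx58, which encodes the RNA sensor RIG-I, in wild-type mice (-0.63 ± 0.15; adjusted p = 0.0122). After EPA against OA, 5 of the 28 effectors were lower (1.14% of all tested probesets were) and 1 higher (1.05% of all) in PPARα-null mice. In wild-type mice 0 were lower (3.37% of all) and 1 higher (2.69% of all). Cxcl10, a chemokine induced by interferon γ, was higher after EPA than after OA by 1.11 ± 0.21 in PPARα-null and 1.08 ± 0.21 in wild-type mice.

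Of 6 tested interferon receptors and ligands, 3 were higher after WY14643 than after DHA in wild-type mice (16.1% of all tested probesets were). They were the receptor chains Ifnar2 (0.43 ± 0.14), Ifngr2 (0.98 ± 0.28) and Il10rb (0.29 ± 0.08). Of 19 other antigen processing and presentation genes, 1 was higher in PPARα-null than in wild-type mice after DHA (2.74% of all tested probesets were). It was Ctss, the protease that trims Cd74 (0.36 ± 0.08, adjusted p = 0.00752). Averaged over the agonists, 2 of the 19 were higher (11.1% of all tested) and 1 lower (9.63% of all). In wild-type mice 4 were higher (16.1% of all tested) and 6 lower (17.9% of all) after WY14643 than after DHA. The higher ones were Ctss, Tapbpl, Psme1 and Rfxank and the lower ones Psmb5, Psmb6, Psmb7, Calr, Lgmn and Nfyb. After WY14643 against OA, Ctss was 0.39 ± 0.09 higher in PPARα-null and 0.43 ± 0.09 higher in wild-type mice, while Calr, a chaperone of class I chains, was -0.41 ± 0.08 and -0.39 ± 0.08 lower.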

How the data were processed

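Intestinal RNA of single mice was hybridised to Affymetrix mouse genome arrays, and the values deposited by the authors are log2 signals after GCRMA background correction, normalisation and summarisation (the version is not given in the sources used here). Probesets were named through the array annotation table, and a member is a probeset with exactly 1 symbol that fits the rule. Differences are on the log2 scale and come from limma 3.58.1 in R 4.3.3, fitted with 8 group means and an intensity trend on all probesets with a group mean above 32, with Benjamini-Hochberg adjustment over all of them and a threshold of 0.05. The study's unadjusted threshold of 0.01 was an alternative, as were no filter or a stricter one, no trend, quantile normalisation, only the groups compared, the replicate number as a block, leaving out the 3 arrays that go against their label, and leaving out each array. The script was tested on simulated data. The number of arrays limits the precision. Gene lists, members and tests were chosen with earlier results of these data known. Genes described are those called between genotypes, a fixed list of central members, and the 10 of smallest adjusted p in each agonist comparison. Ifi47, Ifit1bl1, Ifit2, Ifitm2, Ifitm3, H2-Ea, H2-Oa, H2-Q2, Gbp7, Ifi27l2a, Irf2, the second probesets of H2-Aa, H2-Ab1 and H2-K1, and the genes named from the 5 pathway lists lie outside this rule and were chosen after their values were seen. Promoter windows are RefSeq's.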

Additional observations from a re-analysis of the deposited data

Results flagged for a closer look

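Among 264 pairs of a described gene and a group (33 genes, 8 groups), 13 held a mouse that stood far from the rest of its group, where chance gives about 1 in 20. After WY14643, PPARα-null replicate 1 read 5.94 for Gbp3 (others 5.40 to 5.47) and 7.56 for Ifit3 (others 7.08 to 7.16), and PPARα-null replicate 2 read 8.63 for Oasl1 (others 8.33 to 8.37). Tap1 stood high in PPARα-null WY14643 replicate 4, at 7.43 (others 6.92 to 7.01), in wild-type WY14643 replicate 4, at 7.45 (others 6.46 to 6.61), and in wild-type EPA replicate 5, at 7.68 (others 6.66 to 6.82). Wild-type WY14643 replicate 4 also stood high for Irgm1, at 7.68 (others 6.84 to 6.94), and wild-type EPA replicate 5, an array that goes against its label, for B2m, at 13.32 (others 13.18 to 13.21). PPARα-null DHA replicate 4 stood low for Psmb10, at 9.71 (others 10.24 to 10.32), and for Tap2, at 3.56 (others 4.78 to 4.99). PPARα-null OA replicate 1, which goes against its label, stood high for Tap2, at 5.51 (others 4.5 to 4.64). Oas1a was low in PPARα-null OA replicate 2, at 9.56 (others 10 to 10.09), and Irf3 in PPARα-null EPA replicate 3, at 8.13 (others 8.23 to 8.26).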

How the results depend on the processing

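The alternatives were run on 86 of the described differences, those called between genotypes and up to 10 called ones of smallest adjusted p in each agonist comparison, and none of these changed direction. Calls were lost for 161 of 1072 values with 1 array left out, 26 of 73 with only the groups compared in the model, 20 of 86 without the filter on low values, 8 of 86 with the replicate block, 6 of 86 without the 3 arrays that go against their label, 4 of 86 without the intensity trend, and 0 with quantile normalisation or a level of log2 6. Counts of called members moved by over 1.5 times as follows. Between genotypes, the count after WY14643 was 2, and 1 without the filter. At an unadjusted p under 0.01 it was 4 after WY14643, 2 after EPA and 4 after OA, in place of 2, 0 and 0. After DHA it was 1 in place of 6 with only the groups compared. Against OA in PPARα-null mice, the count after DHA was 8, but 4 without the filter, 4 without the trend, 5 without the 3 arrays and 5 with only the groups compared, and after EPA it was 0 in place of 4 with only the groups compared. WY14643 against DHA in PPARα-null mice gave 6 in place of 12 without the filter and 1 with only the groups compared, and EPA against OA in wild-type mice gave 3 in place of 6 with only the groups compared. The genotype difference after WY14643 minus that after DHA gave 1 in place of 0 without the 3 arrays, none of which is in the groups of that contrast. The cause was not tested. With 1 array left out, genotype counts ranged over 0 to 4 after WY14643 (0 without wild-type replicate 2 or PPARα-null replicate 4, 4 without wild-type replicate 4), 0 to 0 after EPA, 3 to 13 after DHA (3 without PPARα-null replicate 3, 13 without PPARα-null replicate 4), 0 to 0 after OA and 11 to 20 averaged (20 without PPARα-null DHA replicate 4). In PPARα-null mice they were 10 to 14 for WY14643 against OA (10 without OA replicate 3 or WY14643 replicate 2), 1 to 4 for EPA against OA, 2 to 8 for DHA against OA (2 without OA replicate 3 or 4 or DHA replicate 1 or 4, 3 without OA replicate 1, 5 without DHA replicate 2 or 3) and 1 to 17 for WY14643 against DHA (1 without DHA replicate 4, 4 without DHA replicate 2, 6 without DHA replicate 1 or WY14643 replicate 4, 7 without WY14643 replicate 1 or 3). In wild-type mice they were 10 to 16 for WY14643 against OA (10 without WY14643 replicate 1), 3 to 6 for EPA against OA (3 without EPA replicate 5), 3 to 6 for DHA against OA (3 without OA replicate 2, 4 without OA replicate 3 or 4 or DHA replicate 1 or 5) and 23 to 39 for WY14643 against DHA. For the genotype differences between agonists they were 0 to 1 (WY14643 and OA, 1 without wild-type WY14643 replicate 4), 0 to 0 (DHA and OA) and 0 to 1 (WY14643 and DHA, 1 without PPARα-null DHA replicate 4). The replicate numbers were not treated as pairs in the main model. The deviations of same-numbered mice correlated above 0.1 in 6 of 17 pairs (-0.443 to 0.552). After WY14643 the correlations were all positive, at 0.286, 0.341, 0.552 and 0.092 for replicates 1 to 4, and what those mice shared was not tested. With the replicate number as a block the genotype counts were 2, 0, 7, 0 and 13, those in PPARα-null mice 14, 3, 6 and 11, those in wild-type mice 16, 4, 5 and 32, in the order of comparisons used above, and 0 for each difference between agonists.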

Other observations

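Single mice were high or low for many members at once. Over the 88 tested member probesets, wild-type EPA replicate 5 was the highest of its group for 61 and wild-type WY14643 replicate 4 for 56, PPARα-null DHA replicate 3 was the highest for 44 and PPARα-null OA replicate 1 for 42, while PPARα-null DHA replicate 4 was the lowest for 59 and wild-type OA replicate 3 for 41. Many probesets of a gene or family are included, so these counts are not independent. Of the pathway lists that the rule did not take in, 3 of 28 other interferon-induced effectors were higher in PPARα-null than in wild-type mice after DHA (2.74% of all tested probesets were). They were Parp12 (0.48 ± 0.14), Trafd1 (0.49 ± 0.14) and Nmi (0.28 ± 0.08). In the same comparison Tbk1, the kinase that activates Irf3, was 0.33 ± 0.09 (SE) higher (adjusted p = 0.0285). Myd88, an adaptor of Toll-like receptors, was 0.63 ± 0.12 higher after EPA than after OA in wild-type mice (adjusted p = 0.000854). These genes were chosen after their values were seen.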
